A study of Homo sapiens with 6 samples.

Results

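The ribosomal protein-like paralogs are 8 protein-coding genes whose symbols mark them as relatives of a canonical ribosomal protein gene: RPL3L, RPL7L1, RPL10L, RPL22L1, RPL26L1, RPL36AL, RPL39L and RPS27L. They were found by symbol among the 60617 genes of the deposited count table, and all 8 have 1 row each. The cells were A549, an established human lung cancer line grown in RPMI medium with fetal bovine serum, either wild type or with a knockout of YTHDF1, a protein that reads N6-methyladenosine in mRNA. There were 3 libraries in each group, described in the labels as biological replicates. The sources used here do not say whether the knockout is 1 clone or how it was made, and the p-values measure the spread between these libraries alone. The comparison asks whether the paralogs follow the fall of the canonical ribosomal protein mRNAs in the knockout libraries.

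A ribosome holds 1 copy of most ribosomal proteins, and in human cells nearly every one is encoded by a single active gene plus many silent processed pseudogenes. Canonical ribosomal protein mRNAs begin with a C followed by a run of pyrimidines, the terminal oligopyrimidine tract, through which their translation is controlled together. A few genes have expressed paralogs whose proteins can take the place of the canonical protein in the ribosome or act beside it. RPL3L is known from heart and skeletal muscle, RPL10L from testis and RPL39L from male germ cells and some cancers, while RPL7L1, RPL22L1, RPL26L1, RPL36AL and RPS27L are expressed widely.

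The base sequence around the transcription start is shown first because it sets most canonical partners apart from most paralogs. Each line gives a 30-base window that begins 10 bases before the RefSeq start on GRCh38.p14, written 5′ to 3′ on the gene's strand, with the longest unbroken run of C and T in capitals.
RPL7L1, chr6:42879606-42879635, plus strand: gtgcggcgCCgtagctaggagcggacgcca
RPL26L1, chr5:172958719-172958748, plus strand: TCCaggggtcggcgaacgaaacgcggagct
RPL26, chr17:8383174-8383203, minus strand: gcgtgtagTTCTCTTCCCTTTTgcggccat
RPS27L, chr15:63157458-63157487, minus strand: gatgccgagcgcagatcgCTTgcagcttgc
RPS27, chr1:153990752-153990781, plus strand: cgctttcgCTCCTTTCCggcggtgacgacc
RPL22L1, chr3:170870176-170870205, minus strand: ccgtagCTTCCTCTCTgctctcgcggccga
RPL22, chr1:6199576-6199605, minus strand: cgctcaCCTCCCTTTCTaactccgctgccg
RPL36AL, chr14:49620607-49620636, minus strand: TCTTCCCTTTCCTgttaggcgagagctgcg
RPL36A, chrX:101391001-101391030, plus strand: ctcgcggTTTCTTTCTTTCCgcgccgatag
The longest run was 14 bases in RPL26, 9 in RPS27, 11 in RPL22 and 13 in RPL36A. Of the partners not shown, RPL39 had a run of 22, RPL3 a run of 5 and the 3 annotated starts of RPL10 runs of 5, 13 and 4. No window is given for RPL7, the partner of RPL7L1, so the comparison of partners leaves it out. Among the paralogs it was 2 in RPL7L1, 3 in RPL26L1, 3 in RPS27L, 10 in RPL22L1 and 13 in RPL36AL. A second annotated start of RPL26L1 also had a longest run of 3. RPL10L, the testis paralog, had a longest run of 4. A run of at least 7 was present in 2 of the 7 windows that RefSeq gives for 6 paralogs, in 60 of 78 windows (76.9%) for 63 canonical genes, and in 19.3% of 35116 windows for all genes. RPL3L and RPL39L had no entry in the table of starts.

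The paralogs also differ in how closely their coding sequence matches the partner. Aligned coding bases were 94.8% identical for RPL39L and RPL39, 89.9% for RPL36AL and RPL36A, 89.3% for RPL10L and RPL10, and 84.1% for RPL26L1 and RPL26. Identity was 77.8% for RPS27L and RPS27, 75.9% for RPL3L and RPL3, 70.6% for RPL22L1 and RPL22, and 62.0% for RPL7L1 and RPL7. Over whole transcripts, however, few 50-base words were held in common with the partner. This share was 2.01% for RPL36AL, 1.70% for RPL39L, 0.131% for RPL10L and 0 for the other 5 paralogs. Words found in no other annotated gene made up 97.8% of those of RPS27L, 99.4% of RPL22L1, 89.5% of RPL39L, 86.7% of RPL7L1, 85.7% of RPL36AL and 67.6% of RPL26L1. How multi-mapping reads were counted is not known, so by this measure the RPL26L1 level is the most uncertain of these 6. The ratios and shares below rest on the partners as well. Their words found in no other gene made up 47.1% for RPL10, 76.9% for RPL7, 82.2% for RPS27 and between 88.4% (RPL26) and 92.2% (RPL36A) for the rest. Words were matched on both strands, so overlap with a neighbouring gene lowers these values as similar sequence does. Genes on the opposite strand overlap 52.7% of the exonic bases of RPL10 and 5.2% of those of RPL22. For RPL22 another 4.9% was overlapped on the same strand.

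Library totals ran from 27238817 to 40675628 counts. Levels are in CPM, the count relative to the library total after scaling by TMM factors. YTHDF1 itself was between 96.4 and 104 CPM in wild type and between 47.1 and 48.6 CPM in the knockout libraries, a log2 fold change of -1.05 (SE 0.0526). The knockout libraries still held 1570 to 1983 YTHDF1 counts each, so these counts show a lower mRNA level and do not by themselves show the loss that the label states. The word knockout is used as the labels give it. The labels do not say which part of the gene was changed, and protein levels were not analysed here. Mitochondrially encoded mRNAs took between 5.76% and 5.92% of counts in wild type and between 3.72% and 3.98% in the knockout. This difference moves with every comparison below, and its part in them was not tested. The mitochondrial share is not a direct measure of RNA quality, which was not assessed here.

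The canonical mRNAs set the reference. Of 79 canonical ribosomal protein genes tested, 77 fell and 0 rose by the quasi-likelihood test of edgeR (Benjamini-Hochberg adjustment over all genes). Their median log2 fold change was -0.56, with a range from -1.38 (RPS2) to -0.12 (RPS19). RPS2, RPL4, RPL23 and RPS3A, which had the smallest adjusted p, fell by 1.38, fell by 1.15, fell by 1.35 and fell by 1.27. The 2 genes that did not pass were RPL36A and RPS10, a gene at 1.35 CPM in wild type. Over all 18505 genes tested the median was 0.001, 27.2% of genes rose and 26.3% fell, and 53.5% were called in either direction. Canonical genes took 4.25% to 4.37% of all counts in wild type and 2.48% to 2.65% in the knockout. Means are ± SD over n = 3 libraries. A log2 fold change is the knockout level minus the wild-type level, and SE is its standard error in the fit. A CPM value is relative to the rest of the library, so less of an mRNA per cell and fewer cells holding it cannot be told apart.

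The paralogs did not fall as a set. RPS27L rose, RPL22L1, RPL39L and RPL3L fell, and RPL7L1, RPL26L1 and RPL36AL did not pass the test, while RPL10L was not detected. That makes 1 higher and 3 lower of 7 tested, against a background of 27.2% higher and 26.3% lower. RPL3L passed the filter on low counts through the wild-type group alone, so its call is no support for a direction of the group. The 8 genes together summed to between 351 and 373 CPM in wild type and between 395 and 418 CPM in the knockout libraries. RPS27L carries the higher sum: the other 7 summed to between 263 and 277 CPM in wild type and between 248 and 264 CPM in the knockout.

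**Figure D1:**
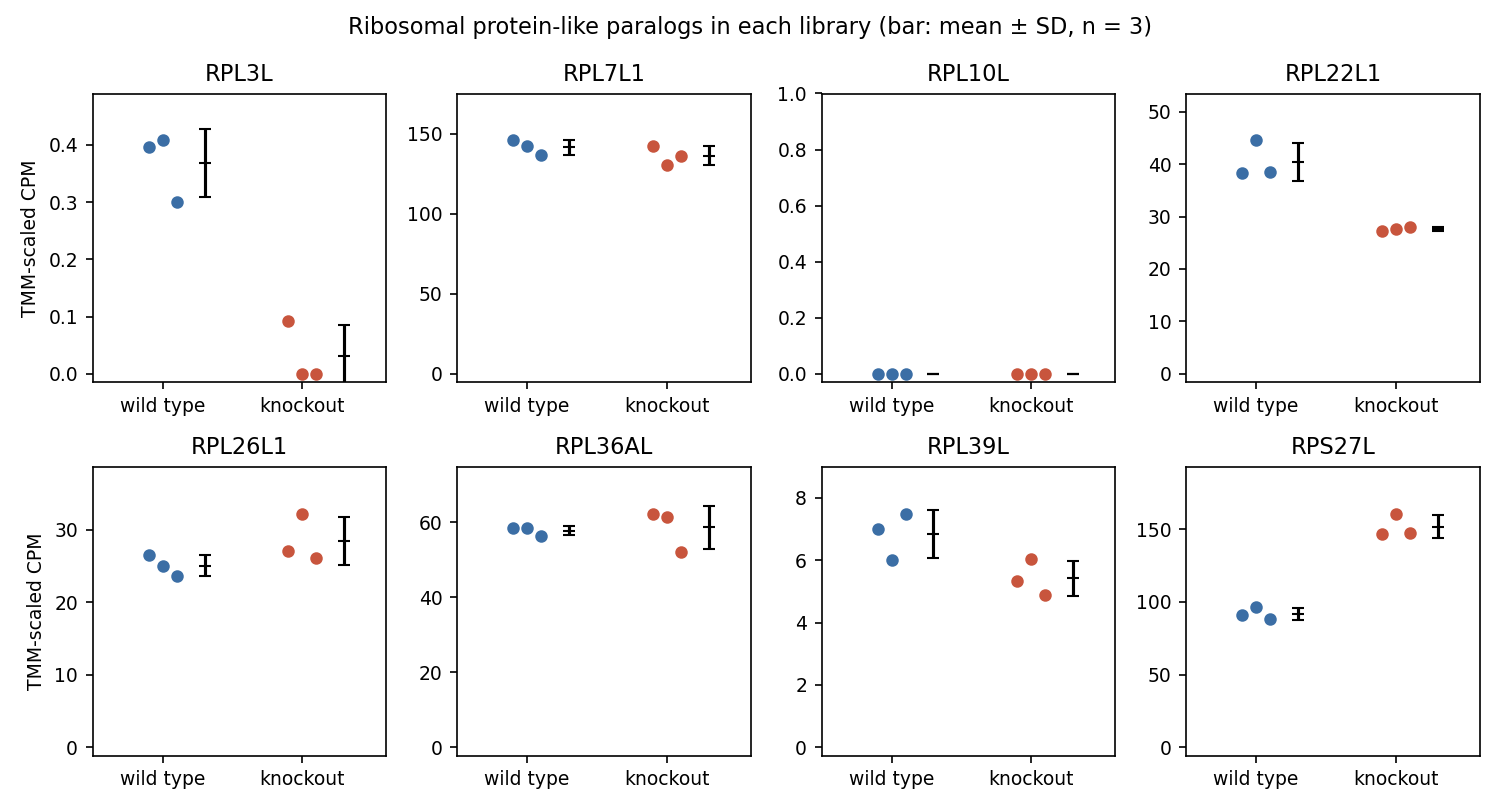
TMM-scaled CPM of each of the 8 paralogs in the 3 wild-type (blue) and 3 knockout (red) libraries, with the mean ± SD as a black bar and a linear axis of its own for each gene. RPS27L lies between 88.3 and 96.3 CPM in wild type and between 147 and 161 CPM in the knockout, RPL22L1 is lower in all 3 knockout libraries, and RPL10L is at 0 in all 6.

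RPS27L was the paralog that rose. It encodes a relative of the small-subunit protein RPS27, is known as a gene induced by p53, and lies at chr15:63125872-63158021 on the minus strand. RPS27L was at 90.8, 96.3 and 88.3 CPM in wild type and 147, 161 and 147 CPM in the knockout libraries. All knockout libraries lay above all wild-type libraries, as they did for 29.8% of the genes tested. The mean went from 91.8 ± 4.06 to 151 ± 7.9 CPM, a log2 rise of 0.72 (SE 0.0494) whose adjusted p was 2.41e-14 by edgeR. RPS27, its partner and a zinc-binding protein of the small subunit, was at 193, 202 and 185 CPM in wild type and 165, 169 and 144 CPM in the knockout. RPS27 fell by 0.28 (SE 0.0512), with an adjusted p of 2.35e-05 in the same edgeR test.

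Within each library the ratio of RPS27L to RPS27 counts does not depend on the scaling. Its log2 was -1.09, -1.07 and -1.07 in the wild-type libraries and -0.17, -0.08 and 0.03 in the knockout libraries. RPS27L therefore went from fewer counts than RPS27 to about as many, a rise of the ratio by 1.00 (SE 0.0574). The exact two-sided permutation test gave p = 0.1, the smallest p that 3 against 3 libraries allow. The ratio was compared for 7 pairs in this way, that of RPL3L among them, and no p was adjusted, since none can pass 0.05. Per kilobase of the coding transcript, RPS27L made up 20.0 ± 0.13% of the pair in wild type and 33.4 ± 1.52% in the knockout. With all annotated exonic bases as the length, which for RPS27L are 9127 rather than 681 bases, these shares were 5.10% and 9.74%.

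Most other genes listed as p53 targets also rose. Of 25 such genes, all tested, 23 rose and 2 fell, with a median log2 fold change of 0.62, against 27.2% higher and 26.3% lower over all genes. The log2 rise was 1.91 for CDKN1A, a cell cycle inhibitor, 2.03 for the secreted factor GDF15, 1.29 for MDM2, which marks p53 for degradation, and 1.25 for TNFRSF10B, a death receptor. A rise of p53 targets in these libraries was known before the list was written, so it is no independent evidence, and whether p53 has a part in the rise of RPS27L was not tested.

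RPL22L1 fell, but by less than its partner. RPL22L1 and RPL22 encode closely related large-subunit proteins, and the RPL22 protein is known to repress RPL22L1. The gene lies at chr3:170864875-170870483 on the minus strand. RPL22L1 was at 38.2, 44.6 and 38.5 CPM in wild type and 27.2, 27.6 and 28.1 CPM in the knockout libraries, with no overlap between the groups, as for 29.1% of genes tested in that direction. RPL22L1 fell by 0.55 (SE 0.071), at an edgeR adjusted p of 6.41e-08. RPL22 was at 98.6, 101 and 111 CPM in wild type and at 46.4, 44.7 and 47.0 CPM in the knockout, and fell by 1.17 (SE 0.0551) at an edgeR adjusted p of 1.41e-18.

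Because RPL22 fell further, the log2 ratio of RPL22L1 to RPL22 counts was higher in the knockout libraries. It was -1.37, -1.17 and -1.53 in wild type and -0.77, -0.69 and -0.74 in the knockout. These groups did not overlap, and the ratio differed by 0.62 (SE 0.104, exact permutation p = 0.1). Per kilobase of coding transcript RPL22L1 made up 27.1 ± 2.42% of the pair in wild type and 36.3 ± 0.633% in the knockout, and with all exonic bases as the length 44.0% and 54.7%. Both genes were thus lower while the balance between them moved towards RPL22L1.

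RPL7L1 did not follow its partner. RPL7L1, at chr6:42879618-42889925 on the plus strand, is a distant relative of the large-subunit protein RPL7 and is found with precursors of the large subunit. It was at 146, 143 and 137 CPM in wild type and 142, 130 and 137 CPM in the knockout libraries, so the groups overlapped. The log2 fold change was -0.06 (SE 0.0468), at an edgeR adjusted p of 0.323. RPL7 went from 864 ± 20.7 to 391 ± 11.2 CPM and fell by 1.15 (SE 0.0397), at an edgeR adjusted p of 2.62e-22. The log2 count ratio of RPL7L1 to RPL7 was -2.53, -2.61 and -2.68 in wild type and -1.49, -1.60 and -1.47 in the knockout, a difference of 1.09 (SE 0.0608, exact permutation p = 0.1). With that of RPS27L and RPS27, it was the largest difference among the 6 pairs in which both genes were detected in every library.

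Among 35 genes for the assembly of the large subunit, the process in which RPL7L1 is placed, 9 rose (25.7%) and 14 fell (40.0%), with all 35 tested. Over all genes 27.2% rose and 26.3% fell, so the share that rose was near the background. The median log2 fold change of the list was -0.08. EBNA1BP2, MDN1, BOP1 and RPF2, which had the smallest adjusted p, fell by 0.68, fell by 0.54, fell by 0.54 and fell by 0.79. MDN1 encodes the large ATPase that strips assembly factors from the maturing subunit, and BOP1 acts in ribosomal RNA processing.

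RPL26L1 was slightly higher in the knockout libraries and did not pass the test. The gene, at chr5:172958729-172969771 on the plus strand, encodes a near copy of the large-subunit protein RPL26. It was at 26.5, 25.0 and 23.6 CPM in wild type and 27.1, 32.2 and 26.1 CPM in the knockout, where replicate 2 stood above the other libraries and the groups overlapped. The log2 fold change was 0.19 (SE 0.0814), at an edgeR adjusted p of 0.0553. The adjusted p in edgeR's test was 0.0426 without wild-type replicate 1, 0.0416 without knockout replicate 1 and 0.0214 without knockout replicate 3. It was 0.44 without knockout replicate 2, with a log2 fold change of 0.088. RPL26 went from 20.2 ± 0.521 to 16.3 ± 0.589 CPM and fell by 0.31 (SE 0.0846), at an edgeR adjusted p of 0.00269.

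The log2 count ratio of RPL26L1 to RPL26 was 0.41, 0.27 and 0.26 in the wild-type libraries and 0.75, 1.02 and 0.62 in the knockout libraries. All knockout values lay above all wild-type values, and the ratio differed by 0.49 (SE 0.129, exact permutation p = 0.1). Per kilobase of coding transcript the share of RPL26L1 was 50.1 ± 1.5% in wild type and 58.4 ± 3.44% in the knockout, and with all exonic bases 72.8% and 78.9%. The gene AC135178.2 overlaps 14.3% of all 2513 annotated exonic bases of RPL26 on the same strand. The coding transcript has only 585 bases, so the part of it in the overlap may be larger and was not measured. How reads on overlapping genes were counted is not known here, so the RPL26 level and these shares are uncertain. An antisense gene, AC008429.1, starts 663 bases from RPL26L1 on the other strand and overlaps 4.3% of its exonic bases. AC008429.1 rose by 1.03 (SE 0.169) from 3.07 ± 0.402 to 6.23 ± 0.986 CPM, and the strand setting of the counting is not known.

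RPL36AL, whose coding sequence lies in 1 exon, is the autosomal copy of the X-linked large-subunit gene RPL36A and lies at chr14:49618519-49620685 on the minus strand. It was at 58.5, 58.5 and 56.3 CPM in wild type and 62.3, 61.5 and 52.1 CPM in the knockout. Knockout libraries lay on both sides of the wild-type values. The log2 fold change was 0.021 (SE 0.0619), at an edgeR adjusted p of 0.806. RPL36A was at 11.0, 10.7 and 12.7 CPM in wild type and 9.60, 11.6 and 7.47 CPM in the knockout, with a log2 fold change of -0.26 (SE 0.128) and an adjusted p of 0.0871 in edgeR's test. Without knockout replicate 2 the log2 fold change of RPL36A was -0.43, at an edgeR adjusted p of 0.0093. It was -0.10 without knockout replicate 3 (adjusted p = 0.548) and -0.18 without wild-type replicate 3 (adjusted p = 0.331) in the same edgeR test. The log2 count ratio of the pair overlapped between the groups, with a difference of 0.29 (SE 0.152, exact permutation p = 0.3). RPL36AL had the larger share of the pair's counts per kilobase of coding transcript, at 86.0 ± 1.39% in wild type and 88.3 ± 1.52% in the knockout. The gene RPL36A-HNRNPH2 overlaps 8.4% of all 3964 annotated exonic bases of RPL36A on the same strand. The coding transcript has only 910 bases, so the part of it in the overlap may be larger and was not measured. How reads on overlapping genes were counted is not known here, so the RPL36A level and this share are uncertain. MGAT2, a glycosyltransferase gene whose start lies 110 bases from that of RPL36AL on the other strand, had a log2 fold change of -0.096 at an edgeR adjusted p of 0.769.

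RPL39L and RPL39 went the same way by similar amounts. RPL39L, at chr3:187120948-187180908 on the minus strand, encodes a small large-subunit protein of the peptide exit tunnel that differs little from RPL39. It was at 7.02, 6.01 and 7.49 CPM in wild type and 5.33, 6.03 and 4.89 CPM in the knockout libraries, and knockout replicate 2 overlapped wild-type replicate 2. RPL39L fell by 0.34 (SE 0.144), at an edgeR adjusted p of 0.0443. This call was lost without wild-type replicate 1 (adjusted p = 0.0983), wild-type replicate 3 (0.181), knockout replicate 1 (0.0887) or knockout replicate 3 (0.176) in edgeR's test. RPL39 went from 155 ± 0.409 to 128 ± 6.57 CPM and fell by 0.28 (SE 0.0463), at an edgeR adjusted p of 4.14e-06. The log2 count ratio differed by -0.053 (SE 0.11, exact permutation p = 0.6), with overlapping groups. RPL39L made up 2.28 ± 0.247% of the pair per kilobase of coding transcript in wild type and 2.20 ± 0.146% in the knockout. With all exonic bases as the length the shares were 8.17% and 7.88%.

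**Figure D2:**
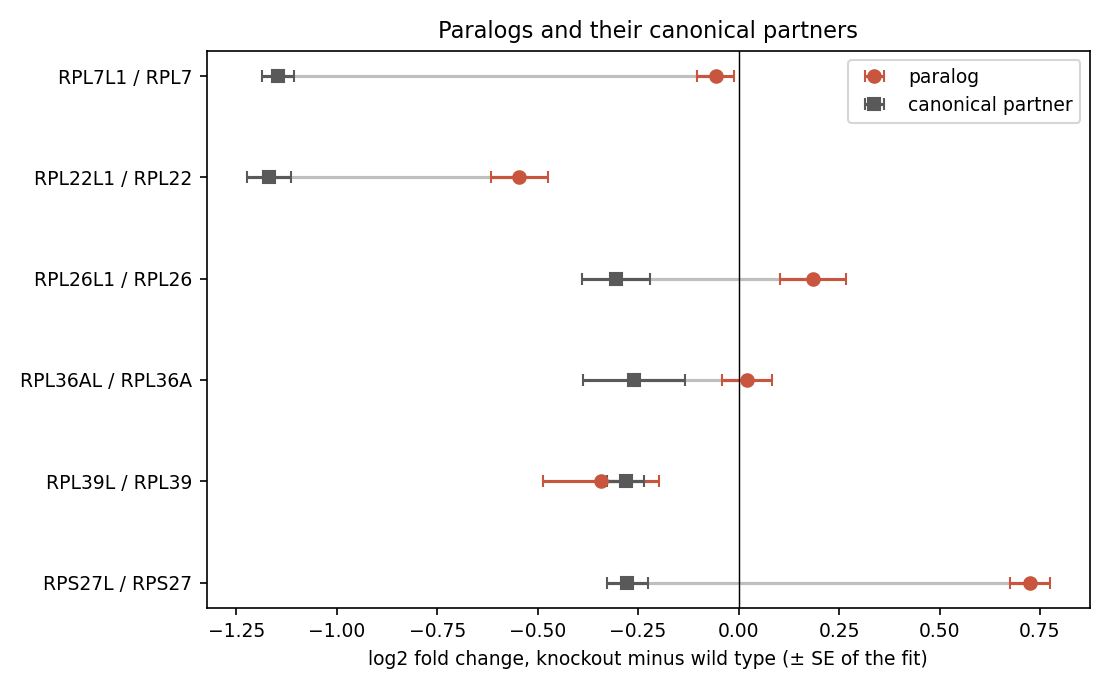
Log2 fold change, knockout minus wild type, with the SE of the fit, for 6 paralogs (red circles) and their canonical partners (grey squares), each pair on a row joined by a line. RPL7L1, RPL22L1, RPL26L1 and RPS27L lie to the right of their partners by 0.49 to 1.09, while RPL39L and RPL39 lie within the SE of RPL39L.

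**Figure D3:**
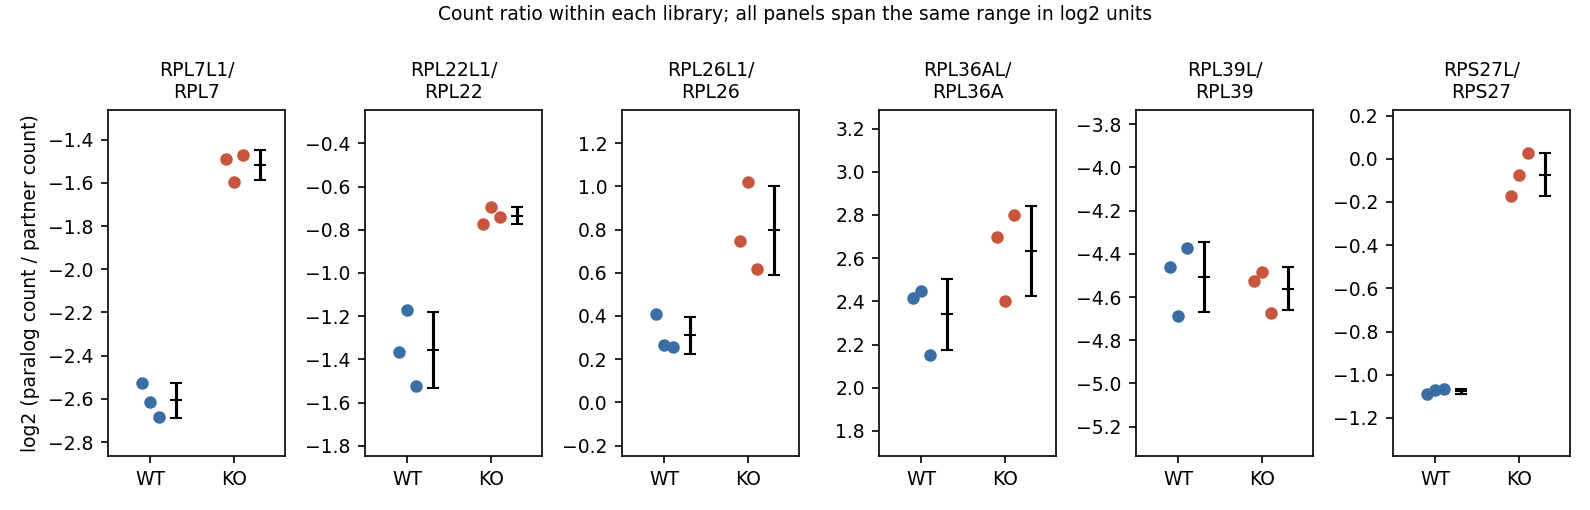
Log2 of the paralog count over the partner count in each library, wild type (WT, blue) and knockout (KO, red), with the mean ± SD as a black bar. Every panel has its own position on the axis and the same span, so distances can be compared. The groups do not overlap for RPL7L1, RPL22L1, RPL26L1 and RPS27L and do overlap for RPL36AL and RPL39L.

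The tissue-restricted paralogs were near or at 0. RPL3L, at chr16:1943974-1957606 on the minus strand, had 15, 11 and 12 counts in the wild-type libraries and 3, 0 and 0 counts in the knockout libraries. With 38 counts against 3, the scaled wild-type level was 13.7 times the knockout level, with an exact 95% counting interval from 4.36 to 69.6. That interval covers counting error only, and libraries of a group differed by more than that. The adjusted p in edgeR's test was 0.000837. RPL3L entered that test through the wild-type counts alone, so the p-value is no support for a fall. The 3 knockout counts all came from replicate 1, and without that library the wild-type level was at least 9.84-fold higher, taking 3 counts over the other 2 knockout libraries as the floor. The fitted log2 fold change was -3.61, -3.01 without knockout replicate 2 or 3, and -6.78 without knockout replicate 1, where it rests on a group at 0 and is no bound. The log2 count ratio of RPL3L to RPL3 differed by -2.84 (SE 1.04, exact permutation p = 0.1). Even in wild type this was a mean of 0.368 CPM, or 0.169 CPM per kilobase of coding transcript beside 1006 for RPL3, which itself fell by 1.06 (SE 0.0388). With all exonic bases as the length the wild-type levels were 0.133 and 303 CPM per kilobase. RPL10L, an intronless gene at chr14:46651010-46651821 on the minus strand, had 0 counts in all 6 libraries, where 3 counts correspond to between 0.0735 and 0.111 CPM. Its partner RPL10, a core large-subunit protein, went from 1049 ± 15.4 to 571 ± 10.5 CPM and fell by 0.88 (SE 0.0378).

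Markers of the tissues these 2 genes are known from were low in both groups. Of 10 germ cell markers, 6 were at 0 in all 6 libraries, DAZL, PRM1 and PRM2 among them, and the list summed to between 2.63 and 3.95 CPM in wild type and between 2.38 and 3.56 CPM in the knockout. Of 11 striated muscle markers, MYH6, MYH7 and TNNI1 were at 0, and the sum of 11.9 to 13.3 CPM in wild type and 12.6 to 14.6 CPM in the knockout was mostly the titin gene TTN, at 12.0 and 12.4 CPM. MYL2, a myosin light chain of heart and slow muscle, was lower along with RPL3L. It had 14, 4 and 10 counts in wild type and 3, 2 and 0 in the knockout. CKM was also lower, with 3, 2 and 2 counts in wild type and 0, 0 and 1 in the knockout. TNNI3 had a higher mean in the knockout, with 4, 2 and 12 counts in wild type and 12, 6 and 8 in the knockout. TNNT2 did too, with 0, 0 and 0 against 5, 1 and 1. ACTC1 had 0, 5 and 2 counts against 5, 0 and 3. All of these had too few counts to enter the test. MYBPC3, the cardiac myosin-binding protein, had 16, 0 and 0 counts in wild type and 28, 3 and 32 in the knockout, with a log2 fold change of 1.91 (adjusted p = 0.0463 in edgeR) and groups that overlapped. The part of these markers in the RPL3L result was not tested. All 10 markers of A549 and epithelial cells were tested and present, with KRT8 at 1576 CPM and ALDH1A1 at 6070 CPM in wild type. Of 12 markers of blood, vessel, fibroblast and liver cells, CD3E and HBB were at 0 and COL1A1 was the highest, at 29.8 CPM in wild type and 41.9 CPM in the knockout, a called rise of 0.49 on the log2 scale. The other member tested, PDGFRB, went from 1.34 to 0.124 CPM, with a log2 fold change of -3.47 (adjusted p = 4.76e-06 in edgeR).

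**Figure D4:**
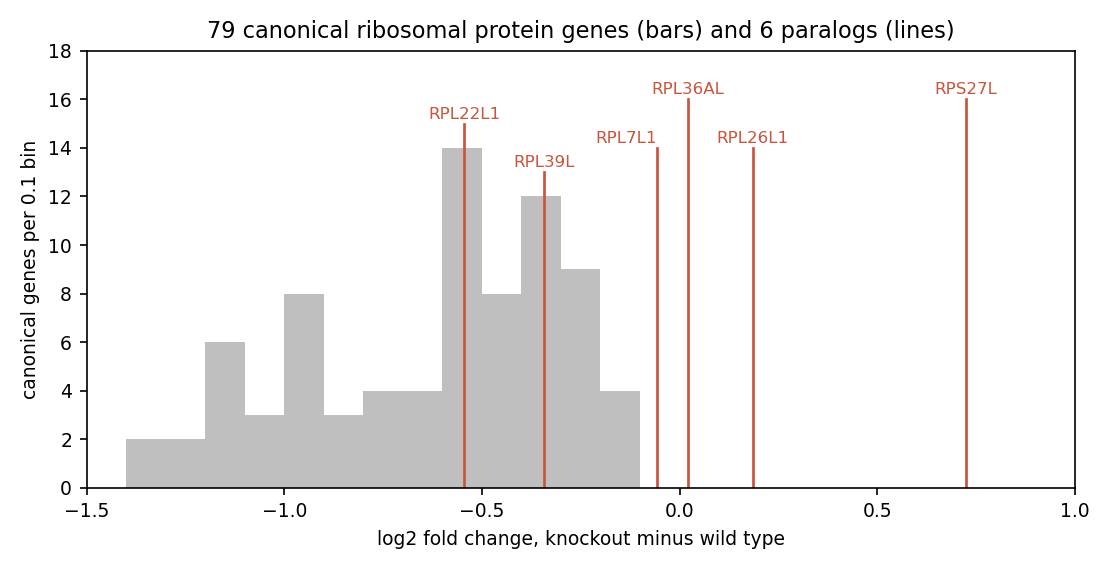
Number of canonical ribosomal protein genes (grey bars, 79 genes) in each bin of 0.1 of log2 fold change, knockout minus wild type, with the values of 6 paralogs as red lines whose height carries no value. RPL22L1 and RPL39L fall inside the canonical range of -1.38 to -0.12, and RPL7L1, RPL36AL, RPL26L1 and RPS27L lie to its right.

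Against the canonical genes, the fitted values of the paralogs split into those inside and those outside the range. The upper end of the range is RPS19 alone, at -0.12 (SE 0.038). RPL7L1, at -0.06 (SE 0.0468), and RPL36AL, at 0.021 (SE 0.0619), lie close to that end, so their place outside it is not firm. The change of RPL22L1 was 0.016 above the canonical median of -0.56, with 42 of 79 canonical genes lower. RPL39L had 61 of 79 canonical genes below it. RPL7L1, RPL36AL, RPL26L1 and RPS27L had all 79 below them, by 0.50, 0.58, 0.75 and 1.29 above the median. The canonical interquartile range ran from -0.91 to -0.35.

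The size of the canonical fall went with the length of the coding sequence, which bears on the choice of partner as a reference. Across the 79 canonical genes, Spearman's rho between log2 fold change and coding length was -0.72, and across 13927 protein-coding genes tested it was -0.019. These are descriptions across genes measured in the same 6 libraries, not independent replicates. The 33 canonical genes with under 450 coding bases, a limit chosen after the values were seen, had a median log2 fold change of -0.35, and the other 46 had a median of -0.70. RPL26, RPL36A, RPL39 and RPS27 are among the shorter ones and had the smallest changes of the 8 partners. RPL22, at 384 coding bases, is short as well but fell by 1.17. Of the paralogs, RPL39L (153 coding bases), RPS27L (300), RPL36AL (318), RPL22L1 (366) and RPL26L1 (435) are under the limit and RPL7L1 (765) is over it. RPS27L, RPL26L1 and RPL36AL lay above the range of the shorter canonical genes, -1.35 to -0.12, and RPL7L1 lay above that of the longer ones, -1.38 to -0.23.

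**Figure D5:**
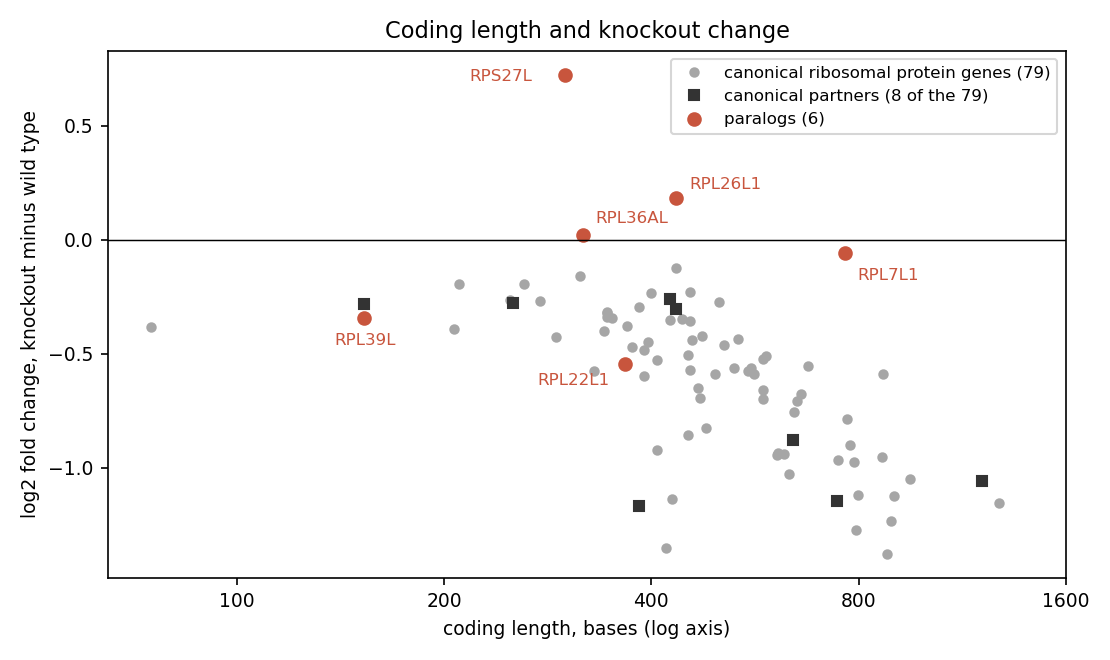
Log2 fold change, knockout minus wild type, against coding length in bases on a log axis, for 79 canonical ribosomal protein genes (grey), the 8 partners among them (black squares) and 6 paralogs (red). Longer canonical genes lie lower (rho -0.72), and RPL7L1, RPL26L1, RPL36AL and RPS27L lie above all canonical genes of any length.

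The longest pyrimidine run in the start window can be set beside the change of each paralog. RPL22L1 and RPL36AL, the 2 with a run of at least 7 in the windows shown above, had log2 fold changes of -0.55 and 0.021. Of the 13 bases of the RPL36AL run, 10 lie before the RefSeq start and 3 from it on, and of the 10 of RPL22L1 these are 4 and 6, so what part of a run is in the mRNA rests on the start used. Those with shorter runs, RPL7L1, RPL26L1 and RPS27L, had -0.06, 0.19 and 0.72. Among 63 canonical genes with a start in the table, the median was -0.52 for the 56 with a run of at least 7 and -0.59 for the 7 without.

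Levels of the paralogs themselves can be ordered per kilobase of coding transcript. In wild type RPS27L was highest at 135 ± 5.96 CPM per kilobase, followed by RPL36AL at 77.4 ± 1.67, RPL7L1 at 37.6 ± 1.25, RPL26L1 at 34.7 ± 2.0, RPL22L1 at 18.5 ± 1.64 and RPL39L at 9.05 ± 1.0. RPL7L1 and RPL26L1 overlapped, with a highest RPL26L1 value of 36.8 against a lowest RPL7L1 value of 36.3, and the other neighbours in this order did not overlap. In the knockout RPL26L1 had a mean of 39.4 and RPL7L1 of 36.2 CPM per kilobase, again with overlap. The order rests on the length used. With all exonic bases RPL36AL was highest in wild type at 77.4 CPM per kilobase, followed by RPL26L1 at 21.5, RPL7L1 at 18.2, RPL22L1 at 17.4, RPS27L at 10.1 and RPL39L at 6.45. On this scale RPL26L1, between 20.3 and 22.8, lay above RPL7L1, between 17.5 and 18.7, without overlap, while RPL7L1 and RPL22L1 overlapped.

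The genes whose profile over the 6 libraries was most like that of each paralog were found by the root mean square difference of centred log2 CPM, among 11119 other genes that averaged 5 CPM or more. For RPS27L these were PFKFB4 (0.025) and STX12 (0.029), and for RPL22L1 they were BAD (0.023) and GCFC2 (0.029). The profile of RPL7L1 was closest to GLIS3 (0.016) and NCBP3 (0.018), and that of RPL36AL to FAM200B (0.028) and MIR4435-2HG (0.029). RPL26L1 had SMN1 (0.027), a gene with a near-identical copy, and DMAC1 (0.034), and RPL39L had HSPBAP1 (0.037) and B3GNT9 (0.055). For RPL3L the nearest, MYH15 and APOE, differed by 0.35 and 0.37. None of these is a canonical ribosomal protein gene. At most 79 of the genes compared are canonical, so their absence here does not set the paralogs apart from them.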

How the data were processed

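RNA of 3 wild-type and 3 YTHDF1 knockout A549 libraries was sequenced from Illumina TruSeq stranded kits, per the labels' protocols. The authors deposited raw counts for 60617 Ensembl genes. The submitters' processing notes name Trim Galore 0.6.6, STAR 2.7.0d, featureCounts 2.0.1, edgeR 3.32.1 and build GRCh38. The sources used here do not give the annotation, strand setting or treatment of multi-mapping reads. Symbols matched 42335 identifiers, and GENCODE 29 matched 58542 for coordinates, exons and coding sequences. Coding length is that of the longest coding sequence in its basic set.

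Counts were fitted with edgeR 4.0.16 (R 4.3.3): filterByExpr, TMM factors, the quasi-likelihood test with genotype as the only term, and Benjamini-Hochberg adjustment over 18505 genes at 0.05. The script was tested on simulated counts. Log2 count ratios add 0.5 to each count, and exact permutation tests over libraries are two-sided. Libraries of a group differed by more than sampling noise (chi-square per degree of freedom 4.53 to 6.85 over genes). Counting intervals cover counting error only. Identity used Biopython 1.88. Sequences are RefSeq's.

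Named genes are the members, their partners, up to 4 genes with the smallest adjusted p from each of 3 lists, and 2 genes most like each member; markers and start neighbours are also given. Members and lists were chosen with earlier results of these data known. Alternatives were RLE factors, library size only, other low-count filters, DESeq2 1.42.0, limma-voom (limma 3.58.1), a replicate block, a pseudocount of 2 and leaving out each library.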

Additional observations from a re-analysis of the deposited data

How the results depend on the processing

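The fall of RPL22L1 and the rise of RPS27L passed the threshold under all 13 alternatives, from 0.68 to 0.76 for RPS27L and from -0.58 to -0.48 for RPL22L1. RPL3L ranged from -6.78 to -3.01 over 12 alternatives and entered each test through the wild-type counts alone, so its passing says nothing about stability. RPL39L passed in 5 of 13, with adjusted p from 0.0197 to 0.181. RPL26L1 passed in 5 of 13, which made 2 paralogs higher in place of 1 with library size only and with at least 1 CPM in 3 libraries, and 1 to 2 when a library was left out. Leaving out libraries moved the log2 fold change of RPL36AL between -0.022 and 0.104, and it was -0.022 without knockout replicate 1 and -0.013 without knockout replicate 2. The same moved the RPL39L to RPL39 difference between -0.143 and 0.0139. The RPL3L to RPL3 difference was -2.84 with 0.5 added to each count and -1.49 with 2 added, since it rests on 3 knockout counts. Canonical genes that fell numbered 74 to 78. With the replicate block, RPL39L had an adjusted p of 0.0617 and no other paralog's call changed. Same-numbered libraries did not deviate together (correlations from -0.026 to 0.00785, beside -0.0122 to 0.0243 for other pairs). This cannot show whether same-numbered libraries were prepared together. RPL3L could not be fitted at 1 CPM in 3 libraries, where it is filtered out.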
